A study of Mus musculus with 12 samples.

Results

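Ccnd1, Tk1, Pclaf and 2810417H13Rik are 4 of the 1448 rows in a table of normalized transcript levels from peritoneal macrophages of mice, phagocytes that live in the lining fluid of the abdomen, and they stand for 3 genes. The last 2 rows are one gene: 2810417H13Rik is an older symbol of Pclaf in the RefSeq gene table of assembly GRCm38.p6. The rows were chosen by name, on measured values of these samples, and this limits what can be tested. By the rule of an earlier reading, which named the 10 largest changes of a comparison in each direction, Ccnd1 is named in both age comparisons, with the 2nd largest fall in untreated mice and the largest under the drug. Tk1 is named for its rise with the drug in young mice, the 9th largest there, and both are treated as selected on these comparisons. What selected the Pclaf rows is not recorded. For these 3 comparisons the members' values are given as a description with no p-value. The drug's effect in aged minus that in young mice is built from the same differences, so it too is given for the members with no p-value. Members are tested for the drug in aged mice, where both groups of mice also stand in the age comparisons. The p-values there do not allow for selection on those comparisons.

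The NanoString nCounter was used, an assay in which colour-coded probes bind the transcripts directly and are counted with no amplification step. Young mice were 3 to 4 months old and aged mice 20 to 22 months old, and each age was left untreated or received PF-044 by gavage at 2.5 mg/kg per day for 6 weeks. PF-044 is an antagonist of EP2, through which prostaglandin E2 raises cyclic AMP in macrophages. There were 3 mice in each of the 4 groups. The labels give no strain or sex, and they do not state if the untreated mice were gavaged.

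Cyclin D1, the product of Ccnd1, binds the kinases CDK4 and CDK6 and carries growth signals such as colony-stimulating factor 1 to the cell cycle. The active kinases phosphorylate the retinoblastoma protein, which releases E2F transcription factors and allows entry into S phase. Tk1, cytosolic thymidine kinase, and Pclaf, a small protein that binds the DNA clamp PCNA at replication forks, are made chiefly in cycling cells, and both are known E2F targets. Resident macrophages of the peritoneum can renew themselves by local division.

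The promoters of Tk1 and Pclaf are shown because both rows of Pclaf and Tk1 were higher under the drug in young mice. Each run holds 250 bases before the annotated start and 30 after it, from RefSeq, assembly GRCm38.p6. Tk1 is at chr11:117825985-117826264, minus strand, and Pclaf at chr9:65890073-65890352, plus strand. Capitals mark the matches found on either strand for an E2F site (TTTCGCGC, TTTGGCGC or TTCCCGCC), a CCAAT box (CCAAT) and the core of a cyclic AMP response element (TGACG).
Tk1: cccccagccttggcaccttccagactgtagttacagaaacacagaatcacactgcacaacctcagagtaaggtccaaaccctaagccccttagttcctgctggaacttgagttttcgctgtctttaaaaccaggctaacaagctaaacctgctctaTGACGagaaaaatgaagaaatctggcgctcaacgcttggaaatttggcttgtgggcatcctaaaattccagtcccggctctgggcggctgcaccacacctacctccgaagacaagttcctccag
Pclaf: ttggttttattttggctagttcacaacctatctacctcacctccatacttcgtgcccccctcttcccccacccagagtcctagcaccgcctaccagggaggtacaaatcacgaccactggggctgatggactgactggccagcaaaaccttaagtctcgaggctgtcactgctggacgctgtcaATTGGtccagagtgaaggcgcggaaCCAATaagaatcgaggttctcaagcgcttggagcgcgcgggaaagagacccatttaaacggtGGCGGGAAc

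The Pclaf run holds GGCGGGAA, the reverse complement of an E2F form, from position 22 after the start. One of the E2F forms lies in 2.79% of 32851 promoter windows of this length. Pclaf also holds the CCAAT letters on each strand, at positions -41 and -66 from the start, and 36.1% of windows hold them. The Tk1 run holds none of the E2F forms and no CCAAT. Its TGACG, at position -94, is shared by 19.9% of windows. Neither run holds the longer cyclic AMP elements TGACGTCA or TGACGCA (3.7% of windows), a cell cycle homology region (TTTGAA or TTCGAA, 18.4%) or the AP-1 site TGACTCA, which reads TGAGTCA on the other strand (4.94%). These matches describe letters and not bound sites.

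The depth differed between samples. Nearly all linear values above the floor (99.4%) are whole multiples of a step that is constant per sample and gene set, and dividing by it gives inferred count equivalents. These summed to between 533930 and 927616 in 11 samples and to 175126 in aged untreated replicate 2. Values stop at a floor of 20 linear units (4.32 on the log2 scale), at which aged untreated replicate 2 held 741 rows and the other samples 333 to 527. Aged untreated replicate 1 held 63 genes above the floor in no other sample, against 0 to 3 elsewhere. Member results that move with either mouse are given with and without it. Of all rows, 1190 rose above the floor in at least 1 sample and were tested, and these include all 4 members. Against the labelled cell type, all 7 measured macrophage markers were above the floor in some sample, and so were all 4 B cell and all 10 T cell markers, while 4 of 5 stromal and mesothelial markers were at the floor in every sample. The drug's 2 comparisons share no sample with each other, while each age comparison shares samples with both of them.

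Ccnd1 was far lower in aged than in young mice, with or without the drug, and was higher in treated than in untreated aged mice. Its log2 values were 9.68, 9.81 and 9.76 in the young untreated mice and 9.93, 10 and 9.76 in the young mice on PF-044. They were 6.88, 6.63 and 6.56 in the aged untreated mice and 7.38, 7.52 and 7.18 in the aged mice on PF-044. Every aged mouse lay below every young one, every treated aged mouse lay above every untreated aged one, and the young groups overlapped.

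**Figure D1:**
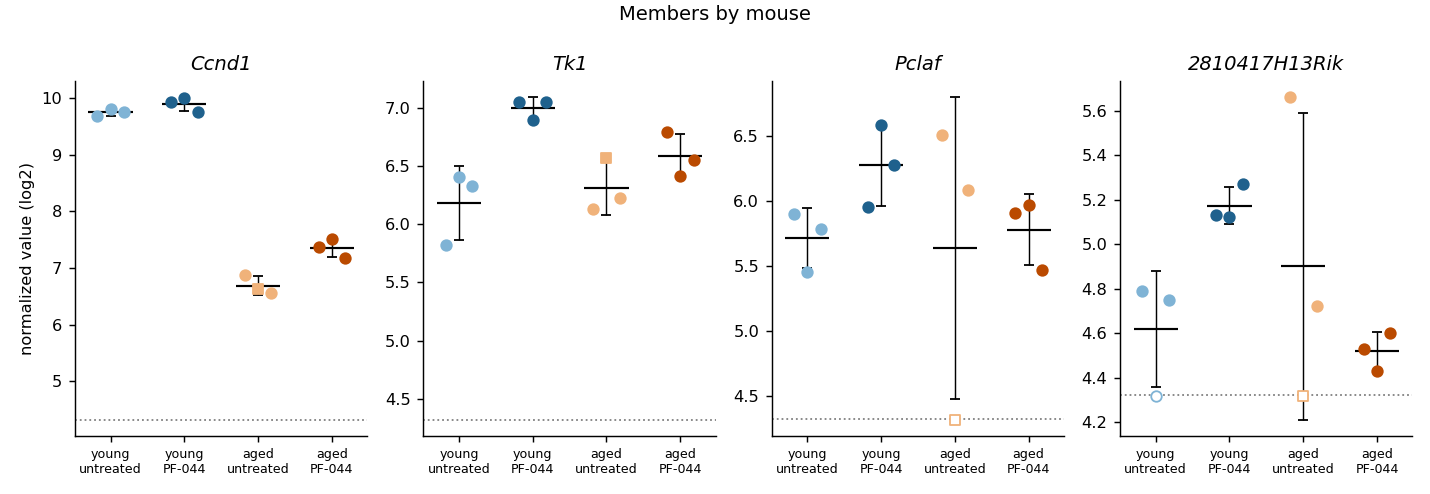
Normalized log2 value (y axis) of the 4 rows in each mouse, by group (x axis), with the mean (bar) and SD (whisker) of 3 mice. Squares are aged untreated replicate 2, open symbols are values at the floor, and the dotted line is the floor of 4.32. Ccnd1 separates the ages, Tk1 is highest in the young mice on PF-044, and the Pclaf rows spread widest in the aged untreated mice.

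The group means of Ccnd1 were 9.75 ± 0.07 (SD, n = 3) in young untreated and 6.69 ± 0.17 in aged untreated mice, a log2 difference of -3.06 (SE 0.11), or 8.34-fold. With the drug they were 9.90 ± 0.12 in young and 7.36 ± 0.17 in aged mice, a difference of -2.54 (SE 0.11), or 5.81-fold. In count equivalents this is 930 to 1159 in the young mice and 26 to 222 in the aged mice. The 26 of aged untreated replicate 2 has a 95% Poisson interval from 6.01 to 7.18 on the log2 scale, which covers the other untreated aged mice and reaches the lowest treated aged mouse. Without that mouse the age difference was -3.03.

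In aged mice the drug comparison gave a rise of Ccnd1 of 0.67 log2 units (SE 0.11, 95% interval 0.43 to 0.90, limma adjusted p 0.00039), or 1.59-fold. All 3 treated mice exceeded all 3 untreated mice. Both groups stand in the age comparisons on which Ccnd1 was selected, and the p-value does not allow for that selection. In young mice the difference was 0.14 (SE 0.11, 95% interval -0.09 to 0.38). The difference between these effects was 0.52 (SE 0.15), which equals the difference between the age comparisons on which Ccnd1 was selected. It ran from 0.44 to 0.62 when each mouse in turn was left out and was 0.29 with samples centred on the reference genes.

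**Figure D2:**
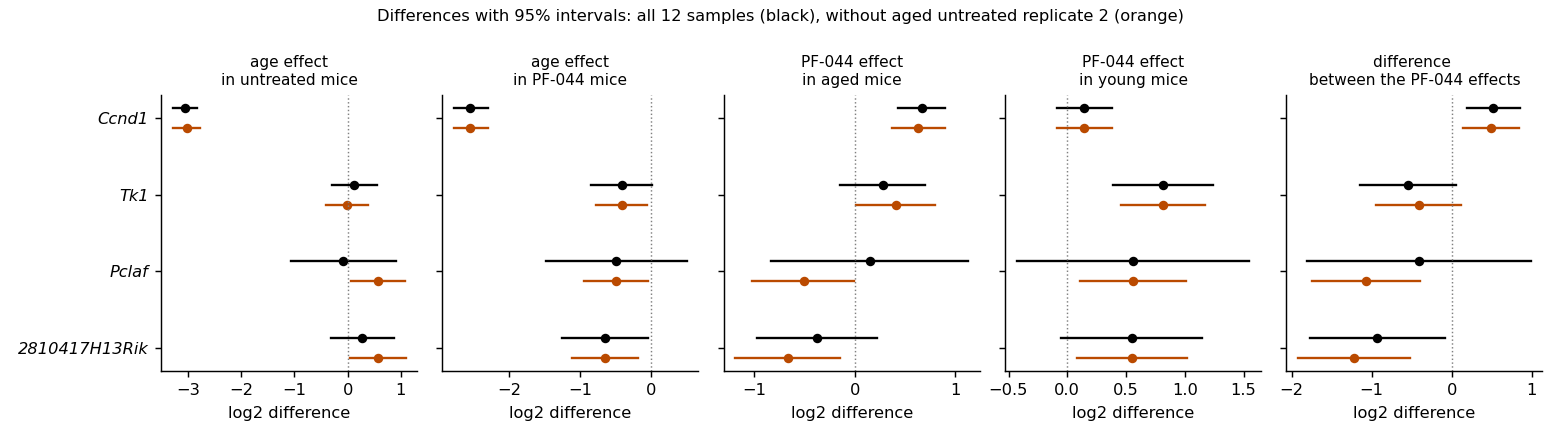
Log2 difference (x axes) of each row (y axis) in the 5 comparisons, with its 95% interval from the fit, over all 12 samples in black and without aged untreated replicate 2 in orange. The age differences of Ccnd1 are -3.06 and -2.54, and the intervals of Pclaf narrow when that mouse is left out. Except for the drug in aged mice the intervals are descriptions, since members were chosen in those comparisons or in their parts.

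Of the 4 rows, Ccnd1 was the row called for the drug in aged mice, where 25.7% of the 1190 tested genes passed upward and 15.2% downward. In the difference between the drug effects, built from selecting comparisons, 1 row passed upward, against 15.0% of genes upward and 10.8% downward. In the comparisons used for selection, the calls of Ccnd1 and Tk1 follow from how these were chosen and are no result. There, 1 row passed downward for age in untreated mice (32.9% of genes downward, 21.2% upward) and 1 for age under the drug (22.5% downward, 15.0% upward). Likewise, 1 row passed upward for the drug in young mice, against 8.4% of genes upward and 5.71% downward. Groups that did not overlap were found for 1 row with age in untreated mice, where 56.4% of genes were so separated. The count was 3 rows with age under the drug (51.6%), 1 row with the drug in aged mice (45.8%) and 3 rows with the drug in young mice (39.4%).

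Markers of several cell types also differed between the groups, and not all in the direction of Ccnd1. The 7 macrophage markers all fell with age in untreated mice (median -1.16), and 6 rose with the drug in aged mice (median 0.65). In young mice 1 of them rose and 2 fell with the drug (median -0.36). Their summed linear level was 10669 to 11517 in young untreated, 8043 to 9042 in young PF-044, 4735 to 5423 in aged untreated and 7086 to 7879 in aged PF-044 mice. The 4 B cell markers summed to 9730 to 10782, 10445 to 13265, 43729 to 49225 and 24108 to 27469 in the same order. All 4 B cell markers rose with age in untreated mice, and 2 fell with the drug in aged mice. The 10 T cell markers all fell with age in untreated mice and all rose with the drug in aged mice, and of 8 mast cell markers 6 fell and 3 rose. Of 6 resident peritoneal macrophage markers 4 fell and 1, Cxcl13, rose with age in untreated mice. With the drug in aged mice 5 of these rose. In such bulk RNA, fewer cells of a type and less RNA per cell cannot be told apart.

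Against the mean of the 5 macrophage markers above the floor in every sample (Adgre1, Itgam, Csf1r, Cd68 and Cd14), the age difference of Ccnd1 was smaller and the drug difference in aged mice was near 0. Ccnd1 minus this mean was -1.03, -0.98 and -1.01 log2 units in young untreated mice and -0.52, -0.59 and -0.78 in young mice on PF-044. It was -2.71, -3.00 and -3.19 in aged untreated mice and -2.91, -2.81 and -2.98 in aged mice on PF-044. The aged groups overlapped, and all aged mice lay below all young ones.

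**Figure D3:**
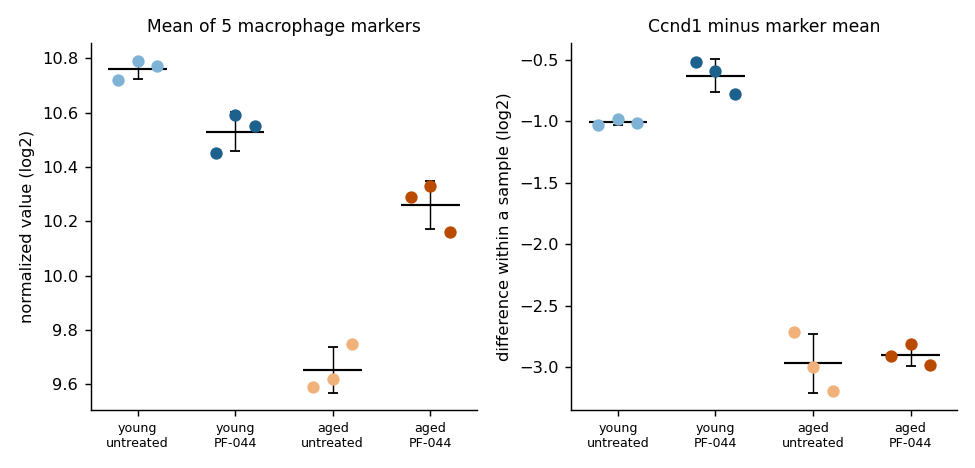
Mean log2 value of 5 macrophage markers (left y axis) and Ccnd1 minus that mean (right y axis) in each mouse by group (x axes), with the mean (bar) and SD (whisker) of 3 mice. The marker mean is lowest in aged untreated mice, and the right panel shows the aged groups overlapping between -3.19 and -2.71.

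With every sample centred on these markers, an alternative chosen after seeing the data, the drug difference of Ccnd1 in aged mice was 0.06 (limma adjusted p 0.66). The age differences were then -1.96 in untreated mice and -2.27 under the drug. The difference between the drug effects became -0.31, against 0.52 before. This centring also moved the median of all tested genes to 1.04 for age in untreated mice, -0.59 for the drug in aged mice and -0.83 for the difference of effects. The part that the mix of cells has in the Ccnd1 result was not tested.

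Tk1 was highest in the young mice on PF-044. Its log2 values were 5.82, 6.40 and 6.33 in young untreated and 7.05, 6.89 and 7.05 in young PF-044 mice. They were 6.13, 6.57 and 6.22 in aged untreated and 6.79, 6.41 and 6.55 in aged PF-044 mice. All 3 treated young mice lay above every other mouse. The aged untreated mice overlapped both other groups, while the lowest treated aged mouse lay just above the highest untreated young one.

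In young mice the drug difference of Tk1, on which it was selected, was 0.81 (SE 0.19), or 1.76-fold, between means of 6.18 ± 0.32 and 7.0 ± 0.09 (SD, n = 3 each). It ran from 0.63 to 0.92 when each mouse in turn was left out. In aged mice Tk1 stood at 6.31 ± 0.23 untreated and 6.58 ± 0.19 treated, a difference of 0.28 (SE 0.19, 95% interval -0.15 to 0.70, limma adjusted p 0.28). The difference between the drug effects, of which the selecting value is a part, was -0.54 (SE 0.27, 95% interval -1.14 to 0.06). It was -0.77 with samples centred on the reference genes, -1.38 on the macrophage markers and -0.31 with a common floor of 100 linear units, which lies above most Tk1 values. The age differences were 0.12 in untreated mice and -0.41 under the drug (SE 0.19 each). With 25 to 142 count equivalents, counting error is wide: the 64 of young untreated replicate 1, the lowest Tk1 level, spans 5.44 to 6.17 on the log2 scale. The 25 of aged untreated replicate 2 spans 5.94 to 7.13.

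Pclaf is measured by 2 rows, whose difference had an SD of 0.27 log2 units where both were above the floor. In the Pclaf row the log2 values were 5.90, 5.46 and 5.79 in young untreated and 5.96, 6.59 and 6.28 in young PF-044 mice. They were 6.51, the floor and 6.09 in aged untreated mice, and 5.91, 5.97 and 5.47 in aged PF-044 mice. The treated young mice lay above the untreated young ones, and the aged untreated mice held both a high value and the floor.

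In the 2810417H13Rik row the values were 4.79, the floor and 4.75 in young untreated and 5.13, 5.12 and 5.27 in young PF-044 mice. They were 5.66, the floor and 4.72 in aged untreated mice and 4.53, 4.43 and 4.60 in aged PF-044 mice. This row too was higher in every treated than in every untreated young mouse, and all treated aged mice lay below all treated young ones.

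Both rows lie close to what the assay resolves. The Pclaf row held 47 to 106 count equivalents above the floor and the 2810417H13Rik row 20 to 45, the 20 being aged untreated replicate 3. In aged untreated replicate 2 a level of 20 count equivalents, the lowest kept there for these gene sets, corresponds to 75.94 linear units (6.25 log2) for the Pclaf row and to 93.03 (6.54 log2) for the 2810417H13Rik row. The floor there therefore says only that the levels were below these. Aged untreated replicate 1 is the highest of the 2810417H13Rik row, at 50.6 linear units. In the same gene set 19 genes rose above the floor in that mouse alone, at 23.0 to 36.8 units, below this value. In the other gene sets such genes went above it, up to 62.7 and 51.3 units. The 62.7 belongs to the gene set of the Pclaf row, which stood at 91.0 in that mouse.

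**Figure D4:**
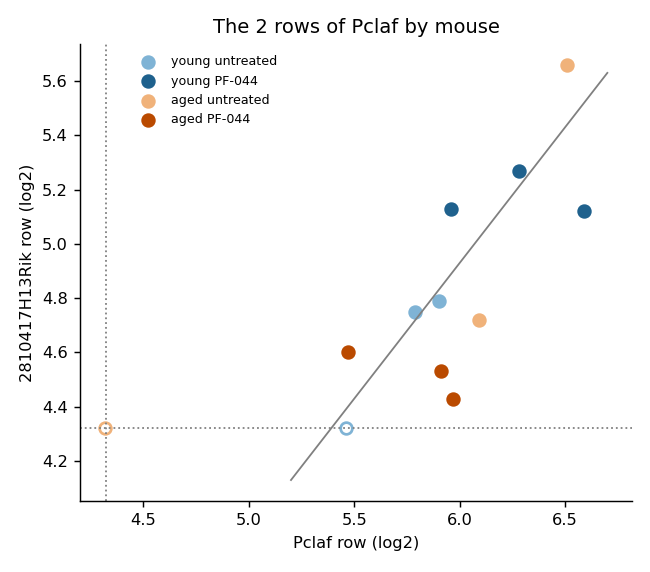
Log2 value of the 2810417H13Rik row (y axis) against the Pclaf row (x axis) in each of the 12 mice, coloured by group. Open symbols have a row at the floor of 4.32 (dotted lines), and the grey line is the median difference of -1.07. The 10 mice with both rows above the floor differ by -1.54 to -0.83.

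In the 10 mice with both rows above the floor, 2810417H13Rik minus Pclaf ran from -1.54 to -0.83 with a median of -1.07 and an SD of 0.27. The difference averaged -1.0 ± 0.57 in 6 aged and -1.10 ± 0.21 in 6 young mice (difference 0.10, two-sided exact permutation p 0.762). It averaged -1.18 ± 0.32 in 6 treated and -0.92 ± 0.48 in 6 untreated mice (difference -0.27, two-sided exact permutation p 0.314). Over the 10 mice above the floor the differences were -0.11 for age (5 against 5, exact permutation p 0.516) and -0.09 for the drug (6 against 4, exact permutation p 0.676). The smallest p that 6 against 6 allows is 0.00216. No change of this difference with age or drug was detected, and these tests do not show the rows to be equal.

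The comparisons of the Pclaf rows turned on aged untreated replicates 1 and 2. With all mice, the drug difference in aged mice was 0.15 (SE 0.45, limma adjusted p 0.83) for Pclaf and -0.38 (SE 0.27, limma adjusted p 0.29) for 2810417H13Rik. Without replicate 2 it was -0.51 (SE 0.23, limma adjusted p 0.089) and -0.67 (SE 0.24, limma adjusted p 0.041), against 18.5% of genes passing downward. The latter rests on 2 untreated mice, at 5.66 and 4.72. Without replicate 1 in its place the differences were 0.58 for Pclaf and 0.00 for 2810417H13Rik, and neither passed.

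With age in untreated mice the rows differed by -0.08 (Pclaf) and 0.28 (2810417H13Rik) with all mice, 0.58 and 0.57 without replicate 2, and -0.51 and -0.10 without replicate 1. The sign thus turned for both rows with the mouse left out. The difference between the drug effects was -0.41 (SE 0.64) for Pclaf and -0.93 (SE 0.39) for 2810417H13Rik with all mice. It was -1.07 and -1.22 without replicate 2, and 0.02 and -0.55 without replicate 1. The age differences under the drug, -0.49 and -0.65, and the drug differences in young mice, 0.56 and 0.55, include neither mouse. Both rows measure one gene in the same RNA and are no independent replicates.

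Other genes with a row under an older and a current symbol show how far such rows agree here. Cd244 minus Cd244a ran from -1.67 to -0.68 in 12 mice (SD 0.27), and Chi3l3 minus Chil3 from 0.30 to 1.10 in 11 mice (SD 0.25). Hras1 was above the floor in 2 mice, both with Hras far higher, at a difference of -3.49 and -2.60. Gpr44 was above the floor in aged untreated replicate 1 alone, and Ptgdr2, its current symbol, was at the floor in all 12 mice. The SD of 0.27 between the Pclaf rows is of the size seen for Cd244 and Chi3l3. Cd244a spanned 7.42 to 9.04 log2 units, while Pclaf above the floor spanned 5.46 to 6.59. The same SD is therefore a larger part of the range of Pclaf.

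A list of S phase and mitosis genes gave 37 further rows, of which 35 were tested, and 22 of the 35 were at the floor in aged untreated replicate 2. With age in untreated mice 3 rose and 3 fell, where 21.2% of all tested genes rose and 32.9% fell. With age under the drug 1 rose and 4 fell (15.0% and 22.5% of all genes). With the drug 2 rose and 2 fell in aged mice (25.7% and 15.2%), and 2 rose and 0 fell in young mice (8.4% and 5.71%). The difference of effects passed downward for 1 and upward for 0 (10.8% and 15.0%). The median of the 35 was 0.21 for the drug in young mice, against 0.02 over all tested genes, and lay between -0.17 and 0.02 in the other 4 comparisons.

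Mki67, a marker of cycling cells, rose with the drug in both ages, by 0.63 (SE 0.12, limma adjusted p 0.0013) in aged and 0.49 (SE 0.12, limma adjusted p 0.018) in young mice, the latter with an adjusted p of 0.07 without young PF-044 replicate 1 or young untreated replicate 1. With age it differed by 0.03 in untreated mice (SE 0.12, limma adjusted p 0.83), and passed with samples centred on the reference genes (0.44, limma adjusted p 0.013). Cenpa, the histone H3 variant of centromeres, rose by 0.89 with age in untreated mice and by 0.46 with the drug in young mice, and fell by 0.24 with the drug in aged mice (limma adjusted p 0.034), a call lost without any one of aged PF-044 replicates 1 and 2 and aged untreated replicates 1 and 2, and with the aged groups fitted alone. The difference of its drug effects was -0.69 (SE 0.11, limma adjusted p 0.00093). Ccna2, cyclin A2, rose with age in untreated mice by 0.55 (SE 0.15, limma adjusted p 0.0097). The call was lost with the 2 groups fitted alone (limma adjusted p 0.075), and the value was 0.11 with the common floor. Cdc20, an activator of the anaphase-promoting complex, fell with the drug in aged mice by 1.07 (SE 0.29, limma adjusted p 0.012), with an adjusted p of 0.055 without aged PF-044 replicate 3 or with the aged groups fitted alone.

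The counts moved with the mice that stand apart. Without aged untreated replicate 2, 8 of 35 rose and 0 fell with the drug in young mice (12.3% and 7.65% of all genes), and the median was 0.21. With the drug in aged mice 1 rose and 2 fell (24.5% and 18.5%). With age 6 rose and 2 fell in untreated mice (23.5% and 31.9%), and 2 rose and 7 fell under the drug (17.9% and 27.8%). The difference of effects passed downward for 6 and upward for 0 (14.3% and 16.2%), with a median of -0.26 against -0.08 over all genes. The 6 genes that passed there were Ccna2, Bub1b, Mybl2, Cenpa, Cdca8 and Clspn, at -0.54 to -1.07, of which Cdca8 and Clspn were named after their values were seen. In all, 27 of the 35 lay below 0 in that fit, and the Pclaf rows had -1.07 and -1.22.

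Without aged untreated replicate 1 in its place, the difference of effects passed downward for 2 and upward for 0 (11.3% and 19.8% of 1127 genes tested), and the median was 0.05. With the drug 5 rose and 1 fell in aged mice (31.3% and 13.9%), and 4 rose and 0 fell in young mice (10.9% and 6.48%). With age 3 rose and 5 fell in untreated mice (20.1% and 37.5%), and 1 rose and 4 fell under the drug (16.1% and 25.9%). The median of the list for the difference thus lay on either side of 0 with the mouse left out.

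**Figure D5:**
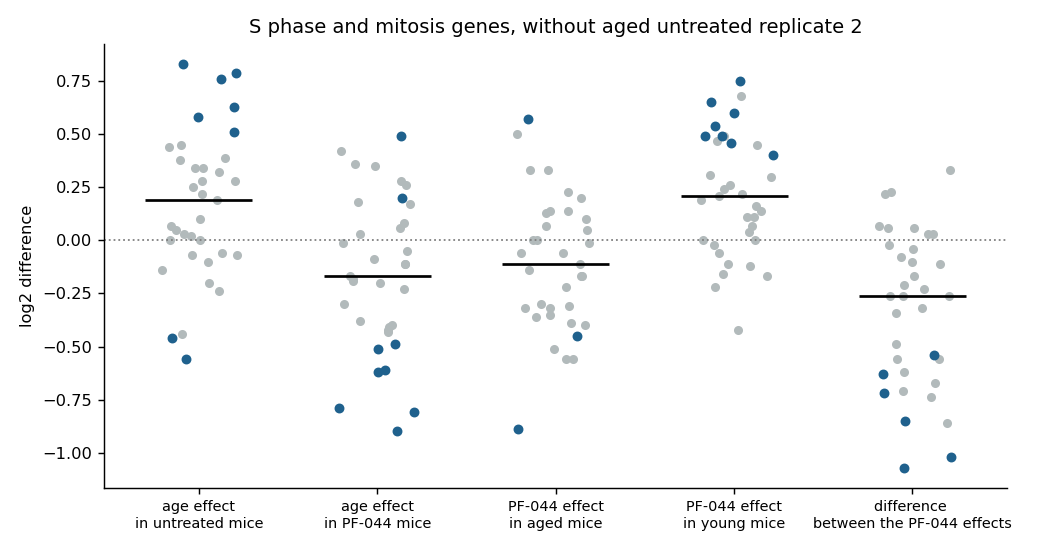
Log2 difference (y axis) of the 35 tested S phase and mitosis genes other than the members in the 5 comparisons (x axis), fitted without aged untreated replicate 2. Each point is a gene, blue where it passed, and the bars are medians, at 0.21 for the drug in young mice and -0.26 for the difference of the drug effects.

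Genes of nucleotide supply, the pathway of Tk1, gave counts near those of all genes. Of 28 tested genes other than Tk1, 8 rose and 8 fell with age in untreated mice (21.2% and 32.9% of all genes), and 9 rose and 6 fell with the drug in aged mice (25.7% and 15.2%). In young mice 1 rose and 2 fell with the drug (8.4% and 5.71%). Tk2, the mitochondrial thymidine kinase, rose by 0.48 with the drug in young mice (SE 0.09, limma adjusted p 0.0046), and differed by 0.13 in aged mice (limma adjusted p 0.27). Cad, which begins pyrimidine synthesis, fell by 1.38 with age in untreated mice and rose by 1.05 with the drug in aged mice (SE 0.09 each). Dck, deoxycytidine kinase, went the other way, with a rise of 0.52 and a fall by 0.64 (SE 0.10 each). Rrm1, the large subunit of ribonucleotide reductase, rose with age by 0.72 in untreated and 0.49 in treated mice. Its partner Rrm2 (-0.54, SE 0.33) and Tyms, thymidylate synthase (-0.21, SE 0.25), did not pass for age in untreated mice.

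On the deposited scaling, growth signals upstream of cyclin D1 were mostly lower with age and higher with the drug in aged mice. Of 40 tested genes, 25 fell and 6 rose with age in untreated mice (median -0.43), where 32.9% of all genes fell and 21.2% rose. With the drug in aged mice 22 rose and 8 fell (median 0.27), against 25.7% and 15.2% of all genes. Under the drug 14 fell and 1 rose with age (22.5% and 15.0%). In young mice 6 rose and 1 fell with the drug (8.4% and 5.71%), or 9 and 4 without aged untreated replicate 2 (12.3% and 7.65%). The median of all tested genes lay between -0.07 and 0.02. With reference-gene centring it was 0.34 for age in untreated mice and -0.21 for the drug in aged mice. With macrophage-marker centring it was 1.04 and -0.59. The list was not counted again under these scalings, so its directions are given for the deposited scaling only. Csf1r, the receptor for colony-stimulating factor 1 and itself a macrophage marker, stood at 9.31 ± 0.05 in young and 8.14 ± 0.11 in aged untreated mice. It fell by 1.17 with age (SE 0.07, limma adjusted p 6e-08) and rose by 0.90 with the drug in aged mice (SE 0.07, limma adjusted p 2.2e-06). Fos, part of the AP-1 factor, fell by 1.38 with age and rose by 0.54 with the drug in aged mice (SE 0.08 each). Myc fell by 0.80 with age in untreated mice (SE 0.08, limma adjusted p 3.2e-06). Its drug difference in aged mice, 0.21 (limma adjusted p 0.044), lost its call under most alternatives and its sign with samples centred on the reference genes (-0.02). Stat5b fell by 0.93 with age in untreated mice. Tcf4, a helix-loop-helix factor counted in the list, rose by 1.3 there, and its place upstream of cyclin D1 was not tested.

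Other D cyclins, their kinases and the retinoblastoma family were sought by symbol, but none had a row among the 1448, so they were not analysed. Of 4 rows of the p53 pathway and cyclin kinase inhibitors, Cdkn1a, which encodes the inhibitor p21, fell by 0.99 with age in untreated mice and fell by 1.22 in treated mice (SE 0.14 each). It did not pass for the drug in aged mice (-0.25, limma adjusted p 0.19) but did with quantile normalization and with median or reference-gene centring (-0.37 to -0.48, highest limma adjusted p 0.047). Trp53, encoding p53, fell with age by 1.2 in untreated mice and rose by 1.0 with the drug in aged mice (SE 0.11 each). Sesn1, a p53 target, rose by 1.0 with age in untreated mice and fell by 0.83 with the drug in aged mice (SE 0.10 each).

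The genes whose pattern over the 12 mice was most like that of each member were ranked by the root mean square difference of mean-centred log2 values, among 706 genes above the floor in every sample. For Ccnd1 these were Cxcl2 (0.39), Tpsb2 (0.49), Cmklr1 (0.52), Pf4 (0.53) and Fn1 (0.57), where the median gene differed by 1.43. Cxcl2, a chemokine, had group means of 9.82, 10.02, 7.57 and 8.15 in the order young untreated, young PF-044, aged untreated and aged PF-044. For Tk1 they were Acsf3 (0.20), Pgk1 (0.24), Ndufb7 (0.25), Naglu (0.25) and Slc1a5 (0.26), with a median gene at 0.46. For Pclaf the nearest was Ube2c (0.44, median gene 0.63), where Pclaf itself varied by 0.57. Pclaf was at the floor in aged untreated replicate 2, and genes at the floor in any sample were not compared. Without that mouse, among 881 genes, the nearest to Pclaf was Dera (0.21, median gene 0.44), where Pclaf varied by 0.35. Without aged untreated replicate 2, 2 of the 5 were again among the 5 for Ccnd1 (Cxcl2 and Tpsb2), 2 for Tk1 (Acsf3 and Naglu) and 0 for Pclaf.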

How the data were processed

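Total RNA of 12 peritoneal macrophage samples, 3 mice in each of 4 groups, was counted on the NanoString nCounter. The authors deposited normalized log2 values, and nothing further was done to them before the fits. Of tools, limma alone appears in the submitters' processing notes, without a version. How background and sample scaling were handled is not stated. Linear values lie on whole multiples of a step per sample and gene set (11851 of 11921 values above the floor, 99.4%, within 0.008 linear units), and the quotients are called count equivalents; intervals on them are 95% Poisson intervals and cover counting error only. The step search recovered 36 of 36 steps in simulated data.

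Rows at the floor in all samples (258) were left out. The 1190 others were fitted with limma 3.58.1 in R 4.3.3 (a coefficient per group, eBayes with trend, 8 residual and 3.27 prior degrees of freedom) over all 12 samples. Tests were two-sided, with p-values adjusted (Benjamini-Hochberg) over all 1190 genes within each of the 5 comparisons, and a gene passed under 0.05. Equal spread in all groups is assumed, which fails for rows at the floor in aged untreated replicate 2 alone. The 2 Pclaf rows were compared by exact permutation tests (scipy 1.17.1). Alternatives were the filter, the floor, 4 other scalings, the variance trend, the samples in the fit, a replicate block and leaving out each mouse. The members and gene lists were chosen with earlier results of these data known. Besides the members and a fixed set of genes, up to 4 genes of a list with the smallest p among those that passed are named per comparison.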

Additional observations from a re-analysis of the deposited data

How the results depend on the processing

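The rise of Ccnd1 with the drug in aged mice passed under all other alternatives, at 0.44 to 0.76, and lost its call with samples centred on the macrophage markers (0.06), an alternative chosen after seeing the data. All alternatives reuse the aged mice of the comparisons on which Ccnd1 was selected. They are no independent support and do not allow for that selection. The difference between the drug effects on Ccnd1 was 0.29 with reference-gene centring, -0.31 with macrophage-marker centring and 0.44 to 0.62 with each mouse left out in turn. For Tk1 that difference was -0.31 with the common floor, -0.77 with reference-gene centring and -1.38 with marker centring. For 2810417H13Rik it was -1.77 with marker centring and -1.22 to -0.55 with each mouse left out, and for Pclaf -1.25 and -1.07 to 0.02. The drug difference of 2810417H13Rik in aged mice was -0.98 with marker centring and -0.67 to 0.00 with each mouse left out. The cause was not tested beyond the alternatives' own construction.

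Among values without a test, Ccnd1 differed with age in untreated mice by -2.92 after quantile normalization, -2.85 with median centring, -2.65 with reference-gene centring and -1.96 with marker centring. Under the drug its age difference was -2.35, -2.37 and -2.27 with median, reference-gene and marker centring. For Tk1 the age difference in untreated mice was 0.53 and 1.23 with reference-gene and marker centring, and under the drug -0.23, -0.24 and -0.15 with median, reference-gene and marker centring. With age in untreated mice Pclaf differed by 1.02 and 2810417H13Rik by 1.38 with marker centring. Under the drug 2810417H13Rik differed with age by -0.37 after quantile normalization and by -0.47, -0.48 and -0.38 with median, reference-gene and marker centring. In young mice the drug difference was 0.35 for Tk1 with the common floor, and 0.37 for Ccnd1 and 0.78 for 2810417H13Rik with marker centring.

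Over all genes, marker centring passed 979, 811, 371 and 838 for age in untreated mice, the drug in aged mice, the drug in young mice and the difference of effects, against 643, 487, 168 and 306. For the drug in young mice 107 passed with reference-gene centring, 280 with only the 2 groups fitted and 101 to 237 with each mouse left out. Scaling moved the split of calls: for age in untreated mice 252 rose and 391 fell, 439 and 315 with median centring, 552 and 222 with reference-gene centring and 905 and 74 with marker centring. For the drug in aged mice 306 rose and 181 fell, 244 and 253 with median centring, 158 and 295 with reference-gene centring and 63 and 748 with marker centring. For age under the drug 178 rose and 268 fell, 251 and 223 after quantile normalization, 306 and 178 with median centring, 259 and 151 with reference-gene centring and 336 and 128 with marker centring. For the drug in young mice 100 rose and 68 fell, 83 and 87 after quantile normalization and 44 and 105 with median centring and 340 and 31 with marker centring. For the difference 178 were above 0 and 128 below, 82 and 224 with reference-gene centring and 19 and 819 with marker centring.

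Mice with the same replicate number did not deviate together (correlations -0.15 to 0.33, median 0.02, over 18 pairs), so the numbers are no pairing. The fit with a replicate block passed 651, 445, 502, 166 and 319 genes in the 5 comparisons, left the drug difference of Ccnd1 in aged mice at 0.67 and changed no member's call. Of 710 values of the 34 results on other named genes, 681 kept their side of the threshold, 24 lost a call, 4 gained 1 and 1 reversed, which was Myc with the drug in aged mice (-0.02 with reference-gene centring). The comparison of the Pclaf rows passed under no alternative. In aged untreated replicate 2 depth bounds the levels of the Pclaf rows only from above.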
